A study of Caenorhabditis elegans with 2 samples.

Results

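The *egl-18* and *elt-6* locus was taken as the gene bodies of *egl-18* and its neighbour *elt-6* with 5000 bp on either side, chrIV:1897322-1926643 on the *Caenorhabditis elegans* assembly ce11, a stretch of 29322 bp. Its members were all peaks with a summit in that stretch, in each of the 8 deposited peak lists of a ChIP-seq experiment on EGL-18. In the series-level ranked list these were 48 of 117695 peaks, in the ranked list of replicate 1 they were 33 of 64911, and in that of replicate 2 they were 26 of 54253. The thresholded lists held 1 of 699 peaks here in the series-level list, 1 of 597 in the conservative list, and 0 of 199 and 0 of 232 in the lists of replicates 1 and 2.

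The study had 1 group with 2 biological replicates, and all worms carried the same allele, st12252[egl-18::TY1::EGFP::3xFLAG] on chromosome IV, in strain RW12252. This allele is an insertion made by CRISPR that targets *egl-18* itself, so that EGL-18 carries green fluorescent protein (GFP) and the tagged gene lies inside the locus described here. The animals were whole young adults, labelled with an age of 63 hours, from cultures synchronised as starved first-stage larvae after bleaching. Chromatin was sheared by sonication to 200 to 800 bp and precipitated with an antibody against GFP. No untagged or control list was analysed, the reference sequence does not hold the tag, and signal from the cells that express EGL-18 cannot be told apart from that of the rest of the animal.

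EGL-18 and ELT-6 are transcription factors of the GATA family, proteins with a zinc finger that binds DNA around the letters GATA. The genes lie next to each other on the same strand and are known to act redundantly in the seam cells, the stem-like cells of the lateral epidermis, which they keep from fusing with the surrounding epidermal syncytium. *egl-18* also acts in the development of the vulva, and in the seam it is known as a target of the Wnt asymmetry pathway. Some transcription factors bind near their own gene, and the question addressed here was whether the peak lists hold signal of EGL-18 at *egl-18* and at its neighbour.

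*egl-18* (WBGene00001186) spans chrIV:1902322-1917840 on the plus strand, 15519 bp, and has 2 groups of transcript starts. One transcript starts at 1902322 and has a first intron of 11092 bp, and the other 2 start at 1913446 and 1913454, at the end of that intron, 11124 bp or more downstream. *elt-6* (WBGene00001253) spans chrIV:1917977-1921643 on the same strand, 3667 bp, with 1 annotated transcript, and 136 bp separate it from *egl-18*. The 5000 bp downstream of *elt-6* also hold the start of *denn-4*, at 1924001. In and before *egl-18* lie 4 small non-coding RNA genes on the minus strand: F55A8.6 (chrIV:1900987-1901135) upstream of it, and F55A8.5 (chrIV:1905347-1905405), F55A8.3 (chrIV:1906974-1907171) and F55A8.4 (chrIV:1908586-1908702) in its first intron.

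The sequences under the 3 peaks of the locus with the highest scores, and under the highest peak in *elt-6*, are given because the results turn on these 4. Each is the plus strand of the reference genome (WBcel235, the same assembly as ce11) over the 276 bp of the deposited peak, with the summit at base 139. Capitals mark GATA sites, which were searched on both strands as any of 4 words: TGATAA, or its variant TGATAG, or the form AGATAA, or lastly AGATAG. A site on the minus strand appears as its reverse complement, so that AGATAA reads TTATCT. A match is a stretch of letters and not a measured binding site.
First peak, first intron of egl-18, chrIV:1908582-1908857: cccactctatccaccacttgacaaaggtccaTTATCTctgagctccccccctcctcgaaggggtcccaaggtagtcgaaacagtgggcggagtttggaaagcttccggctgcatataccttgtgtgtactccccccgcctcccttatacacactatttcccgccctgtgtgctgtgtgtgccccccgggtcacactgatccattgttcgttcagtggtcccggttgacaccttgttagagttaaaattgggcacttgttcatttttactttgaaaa
Second peak, first intron of egl-18, chrIV:1904711-1904986: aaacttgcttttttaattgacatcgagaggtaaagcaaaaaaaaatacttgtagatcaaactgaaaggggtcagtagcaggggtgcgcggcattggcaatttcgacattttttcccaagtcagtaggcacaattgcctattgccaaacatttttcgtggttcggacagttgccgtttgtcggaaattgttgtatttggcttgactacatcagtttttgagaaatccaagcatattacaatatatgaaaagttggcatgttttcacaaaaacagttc
The third peak, intron 4 of egl-18, chrIV:1916443-1916718: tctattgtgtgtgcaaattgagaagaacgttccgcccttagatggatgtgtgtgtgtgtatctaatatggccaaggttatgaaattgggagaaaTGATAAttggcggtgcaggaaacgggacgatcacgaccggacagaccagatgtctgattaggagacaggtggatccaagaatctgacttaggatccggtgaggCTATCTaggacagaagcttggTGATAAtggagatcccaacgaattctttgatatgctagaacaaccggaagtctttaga
Highest elt-6 peak, intron 5 of elt-6, chrIV:1920107-1920382: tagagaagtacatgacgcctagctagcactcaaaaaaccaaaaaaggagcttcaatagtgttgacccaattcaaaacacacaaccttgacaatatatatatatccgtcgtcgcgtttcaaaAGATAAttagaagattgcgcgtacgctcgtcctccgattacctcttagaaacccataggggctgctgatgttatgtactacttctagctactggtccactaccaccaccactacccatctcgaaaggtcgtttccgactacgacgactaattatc

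The highest peak of the locus lay inside *egl-18*, in its first intron, and it was the only one in a thresholded list. Its summit, at 1908720, was 6398 bp downstream of the first start of *egl-18*, 4726 bp upstream of the internal start and 9257 bp upstream of *elt-6*. Its signal, the peak height in the authors' lists on a scale that is not stated, was 81.1 in both series-level ranked lists. Its score was 1000 in both. The score runs up to 1000 and grows as the irreproducible discovery rate (IDR) falls. That rate is low where a peak ranks both high and alike in 2 inputs. A score of 540 stands for an IDR of 0.05 and a score of 830, the lowest in the series-level thresholded list, for an IDR of 0.01. The IDR of the highest peak was 0.00251.

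The same place stood highest in each replicate alone, at a lower score. In replicate 1 the peak spanned chrIV:1908633-1908882, with its summit at 1908758, a signal of 46.1 and a score of 386. In replicate 2 it spanned chrIV:1908573-1908836, with its summit at 1908705, a signal of 36.7 and a score of 348. Both summits were within 38 bp of that of the series-level list, and in both replicates this was the peak of the locus with the highest signal and the highest score. Neither score reached 540, and the peak was in neither replicate's thresholded list.

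Among all peaks of a list, the first peak was near the top of the ranked lists and in the middle of the thresholded ones. It ranked 455 by signal in the series-level ranked list, where 0.386% of the peaks were higher, 474 in replicate 1 (0.729% higher) and 947 in replicate 2 (1.74% higher). In the thresholded list of 699 it ranked 356, beside a median signal there of 81.6, and 383 of those 699 also had a score of 1000. The 1 thresholded peak among 48 at the locus stands beside 0.594% of the peaks over the whole ranked list, and in the conservative list the 1 among 48 stands beside 0.547%. Of 3418 windows of the length of the locus tiled along the genome, 16.6% held a thresholded summit, and 10.9% held a ranked peak with a signal above 81.1.

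The first peak also covers a non-coding RNA gene. F55A8.4, of 117 bp, lies wholly under it, and the summit was 18 bp upstream of the annotated 5' end of F55A8.4, which is read on the other strand from *egl-18*. The summit of replicate 1 was 56 bp and that of replicate 2 was 3 bp upstream of the same end. Peaks over genes with the annotation class ncRNA, that of F55A8.4, made up 19.5% of the thresholded list and 3.73% of the ranked list. Genes of any other annotation class were not counted in these shares. Signal that belongs to *egl-18* and signal that belongs to F55A8.4 cannot be told apart at this peak. The next non-coding gene in the intron, F55A8.3, had a summit 3 bp upstream of its 5' end, with a signal of 30.7 and a score of 197, and a peak in replicate 1 (19.1) but none in replicate 2. No peak of the series-level ranked list lay over F55A8.5 or F55A8.6, and replicate 1 had one over F55A8.6, with a signal of 8.25 and a score of 18.

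**Figure D1:**
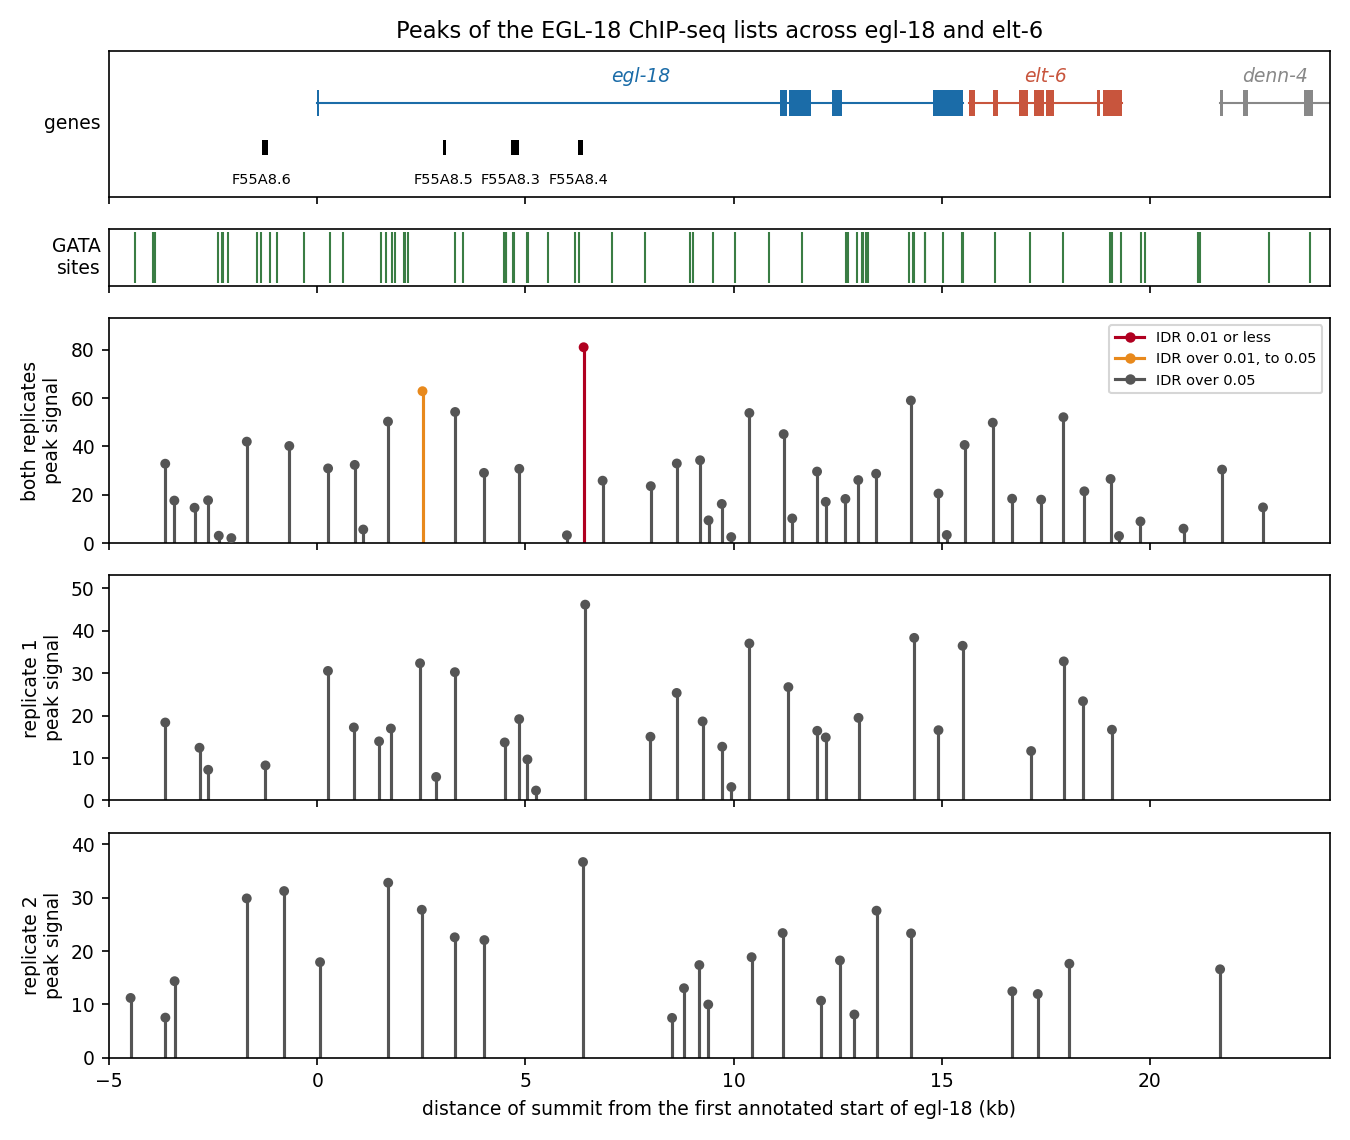
Peaks of the series-level ranked list and of each replicate along the locus, by distance of the summit from the first start of *egl-18* in kb (horizontal axis) and by peak signal (vertical axis), above the gene models. The peak at 6.4 kb is the highest in each of the 3 lists (81.1, 46.1 and 36.7), and heights may be read within a list only.

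Apart from the first peak, the locus held peaks below the threshold, and those with the highest scores were again in introns of *egl-18*. The second peak, at 1904849 in the first intron and 2527 bp downstream of the first start, had a signal of 62.9 and a score of 689, for an IDR of 0.0218. In replicate 1 it had a signal of 32.3 and a score of 132, and in replicate 2 a signal of 27.7 and a score of 129. The first peak was 1.29 times as high as the second in the series-level list. The third peak, at 1916581 in intron 4 of *egl-18* and 1396 bp upstream of *elt-6*, had a signal of 59.0 and a score of 510. In replicate 1 it was the second highest by signal, 38.3 with a score of 148, and in replicate 2 it was lower in the order, 23.3 with a score of 33.

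With a score of 540 or more, for an IDR of 0.05 or less, the series-level ranked list held 2 of the 48 peaks, beside 2.40% of all its peaks. The other series-level ranked list, which holds all the peaks of the conservative set, also had 48 peaks here. It had 3 with such a score, beside 1.99% of its own, since the third peak had a score of 558 there. The replicates' ranked lists held 0 of 33 and 0 of 26, beside 0.849% and 0.916%. At a score of 830 or more, the locus had 1 peak in each series-level list, beside 0.680% and 0.634%, and 0 in each replicate, beside 0.431% and 0.514%.

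The signal at *elt-6* was lower than at *egl-18*, and no peak of it was in a thresholded list. The highest peak in the gene body had its summit at 1920245, in intron 5 and 2268 bp downstream of the start, with a signal of 52.1 and a score of 396. It had a signal of 32.8 and a score of 130 in replicate 1. The overlapping peak of replicate 2, with a signal of 17.6 and a score of 39, had its summit 143 bp away. The next peak of *elt-6*, at 1918548 in its first intron, had a signal of 49.8 and a score of 121 and overlapped no peak of either replicate. The highest peak in an exon of *elt-6*, at 1921378, had a signal of 26.5 and a score of 188.

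The sequence just upstream of *elt-6* had peaks in some lists and not in others. A peak with its summit at 1917872, in the 136 bp between the genes and 105 bp upstream of *elt-6*, had a signal of 40.6 and a score of 281. It overlapped a peak of replicate 1 with a signal of 36.4 and a score of 261, the second highest score of the locus in that replicate, whose summit at 1917824 fell in the last exon of *egl-18*. Replicate 2 had no peak there, and neither had the other series-level ranked list. By summit, the short gap therefore held a peak in the main series-level ranked list only, and the peak of replicate 1 reached into it.

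Upstream of the first start of *egl-18* and in its exons, no peak was as high as the 6 highest of its introns. Those 6 had signals from 50.3 to 81.1, while the median intronic signal was 29.3. One of the 6, at 1912701 with a signal of 53.9, lay 745 bp upstream of the internal start. Upstream of the first start the highest peak was at 1900628, 1694 bp away, with a signal of 42.0 and a score of 279. Another, at 1901649 and 673 bp away, had a signal of 40.2 and a score of 178. Both had an overlapping peak in replicate 2, with signals of 29.9 and 31.3, and none in replicate 1. At the internal start, a peak at 1913525 lay in an exon, 79 bp downstream, and had a signal of 45.1 and a score of 389. It had an overlapping peak in both replicates, at 26.7 and 23.4. The other 6 upstream peaks had signals up to 32.9 and scores of 60, and 2 of them, at 1898669 and 1898888, overlapped the same peaks of replicate 1 (18.4) and replicate 2 (14.4). Just inside the gene, 259 bp downstream of the first start, a peak at 1902581 had a signal of 30.9 and a score of 139, with overlapping peaks at 30.5 in replicate 1 and 17.9 in replicate 2.

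The other intronic peaks of *egl-18* were all below the third peak, with signals from 2.47 to 54.3, and some of them are given here. In the first intron, the peak at 1905633 had a signal of 54.3 and a score of 494, with 30.2 in replicate 1 and 22.6 in replicate 2. The peak at 1912701 had a signal of 53.9 and a score of 322, and stood at 37.0 in replicate 1 and 18.9 in replicate 2. The peak at 1904020 had a signal of 50.3 and a score of 362, and here replicate 2 held its second highest peak of the locus, at 32.8, beside 16.9 in replicate 1. The order of the peaks below the first thus differed between the replicates. The peak at 1915746, in intron 4, had a signal of 28.7 and overlapped a peak in replicate 2 alone (27.6), the highest within 5000 bp of *elt-6* there.

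Downstream of *elt-6* the 2 peaks before *denn-4* had signals up to 8.95 and scores of 60, the lowest in the list. Those in *denn-4* were at 30.4 in an exon and 14.8 in an intron. At the edges of the locus, the outermost peaks inside it, 3653 bp and 3397 bp from the nearer gene, had signals of 32.9 and 14.8. The nearest peaks outside it, 5276 bp and 5161 bp from the nearer gene, had signals of 53.6 and 27.1.

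By place, the introns of *egl-18* made up 47.2% of the locus and held 24 of its 48 peaks, 1.73 per kb. The first intron alone held 18 peaks, 1.62 per kb, and intron 4 held 4 in 2193 bp. The 5000 bp upstream of *egl-18* held 8 peaks (1.60 per kb), its exons 4, the gap 1, the exons of *elt-6* 3 and its introns 4 (1.77 per kb). The downstream stretch held 2 (0.849 per kb) and *denn-4* 2. The number per kb thus ran from 1.60 to 2.37 over the upstream, exonic and intronic stretches of both genes, and the heights differed more: the highest signal was 42.0 upstream of *egl-18*, 81.1 in its introns, 52.1 in the introns of *elt-6* and 8.95 downstream.

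The locus as a whole had more ranked peaks per kb than its chromosome. It had 1.64 per kb in the series-level list, beside 1.03 over chromosome IV and 1.17 over the genome. Stretches with no ranked peak lower such averages, and the median over windows of the length of the locus was 1.16 per kb on chromosome IV and 1.26 over the genome. Replicate 1 had 1.13 per kb here and 0.563 over chromosome IV, and replicate 2 had 0.887 and 0.478. Windows of the same length along the genome had a median of 37 peaks, with 5th and 95th percentiles of 14 and 46. Of these windows, 1.78% had more than the 48 of the locus. Some of the 48 overlap each other, and merging those left 39. Peaks in the windows were not merged, so 39 has no like count beside it. Ranked lists go far below the threshold: 18 of the 48 peaks had the lowest score of the list, 60, a share of 37.5% beside 40.5% in the whole list. The median signal was 26.0 at the locus and 22.9 over the list.

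Part of the peaks were seen in both replicates. Of the 48 peaks of the series-level list, 34 overlapped a ranked peak of replicate 1 by 1 bp or more and 26 one of replicate 2. Both replicates had one for 19 peaks, replicate 1 alone for 15, replicate 2 alone for 7, and neither for 7. Because neighbouring peaks of the series-level list can overlap the same peaks, these 19 rested on 15 pairs of replicate peaks. The 7 highest peaks by signal all had a peak in both replicates. The same overlaps were not counted over the whole list. Whether these counts are high, low or usual for peaks of the list therefore cannot be said.

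**Figure D2:**
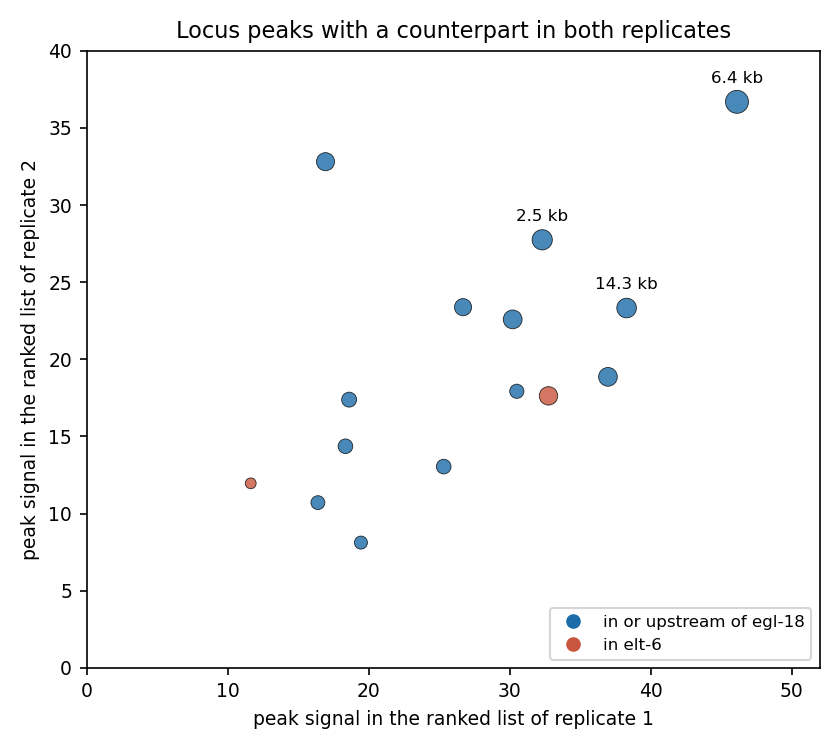
Peak signal in replicate 1 (horizontal axis) and in replicate 2 (vertical axis) for the peaks of the locus with an overlapping peak in both replicates, each point a pair of replicate peaks, coloured by place, with its area growing with the series-level signal and the 3 highest labelled by distance from the first start of *egl-18*. The first intron peak lies at 46.1 and 36.7, the highest on both axes, and the other 14 pairs lie at or below 38.3 in replicate 1 and 32.8 in replicate 2.

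Set beside all 19973 protein-coding genes, *egl-18* was in the upper part of the order and *elt-6* nearer to the middle. When each gene was given the highest signal of any ranked peak in its body or within 5000 bp, *egl-18* had 81.1 and ranked 1092, with 5.46% of genes higher. *elt-6* had 59.0, from the third peak, which lies in *egl-18*, and ranked 4594, with 23.0% of genes higher. The median over genes was 49.6. Of all protein-coding genes, 8.86% had a thresholded summit in this window. In gene bodies alone, *egl-18* ranked 120 (0.596% higher) and *elt-6*, at 52.1, ranked 2265 (11.3% higher), and 1.36% of genes had a thresholded summit in the body.

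In both replicates *egl-18* stood above *elt-6*, and the place of *elt-6* differed more between them. In replicate 1, 5.31% of genes were higher than *egl-18* and 14.3% higher than *elt-6*. In replicate 2, the shares were 11.1% and 41.8%. In gene bodies alone they were 0.666% and 8.63% in replicate 1, and 1.94% and 45.4% in replicate 2. Long genes can hold more peaks, and so genes within 25% of the length of each were set beside it. This used the window of 5000 bp on either side and was not done for gene bodies alone. Among 533 genes near the length of *egl-18*, 6.19% were higher, their median was 54.9, and 12.9% had a thresholded summit. Among 3493 genes near the length of *elt-6*, 25.8% were higher, with a median of 50.7.

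Of the 9 other GATA factor genes (*elt-1*, *elt-2*, *elt-3*, *elt-4*, *elt-7*, *end-1*, *end-3*, *med-1* and *med-2*), none had a thresholded peak, and their highest signals ran from 32.2 to 64.7 with a median of 46.9. Among them, 3 had a peak with a score of 540 or more, beside 27.7% of all protein-coding genes: *elt-3*, an epidermal factor, at 64.7 with a score of 703, and *end-3* (63.5, score 626) and *med-2* (61.6, score 764), which specify the embryonic endoderm and its precursors. *elt-2*, the main GATA factor of the intestine, had 43.5, and *elt-1*, which specifies the epidermis in the embryo, had 42.0. *egl-18*, at 81.1, thus had the highest signal of the 11 GATA factor genes, and *elt-6*, at 59.0, came after *elt-3*, *end-3* and *med-2*. In gene bodies alone *elt-6*, at 52.1, came next after *egl-18*, ahead of *elt-2* at 43.5. With the window, *egl-18* also came first among them in each replicate, while the place of *elt-6* changed: in replicate 1 only *med-2*, at 41.6, stood between it and *egl-18*, and in replicate 2 *end-3*, *elt-3* and *med-2* did.

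Of 17 genes of the seam cells and the Wnt asymmetry pathway, 16 had a ranked peak in the window, with highest signals from 26.0 to 85.1 and a median of 46.5, below the 49.6 over all genes. One had a thresholded peak, *sys-1*, a beta-catenin of the pathway, at 85.1 with a score of 1000, above *egl-18*, beside 8.86% of all protein-coding genes with such a peak. The peak at 85.1 lay outside the body of *sys-1*, within 5000 bp of it, while that of *egl-18* lay inside its gene. In the body of *sys-1* the highest signal was 38.6, with 36.6% of genes higher, and replicate 2 had no peak there. A score of 540 or more was found for 5 genes, beside 27.7% of all. By highest signal and highest score in the window, they were *sys-1*, *lit-1* (55.8, score 635), *ceh-16* (64.7, score 587), *pop-1* (56.5, score 566) and *lin-17* (55.1, score 541). *ceh-16* is the engrailed homologue of the seam cells, and *pop-1* the TCF factor that works with SYS-1. In the other series-level ranked list 4 genes had such a score. There *ceh-16* (495) and *lin-17* (371) did not, while *eff-1* did, with a score of 607 beside 538 in the main list.

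**Figure D3:**
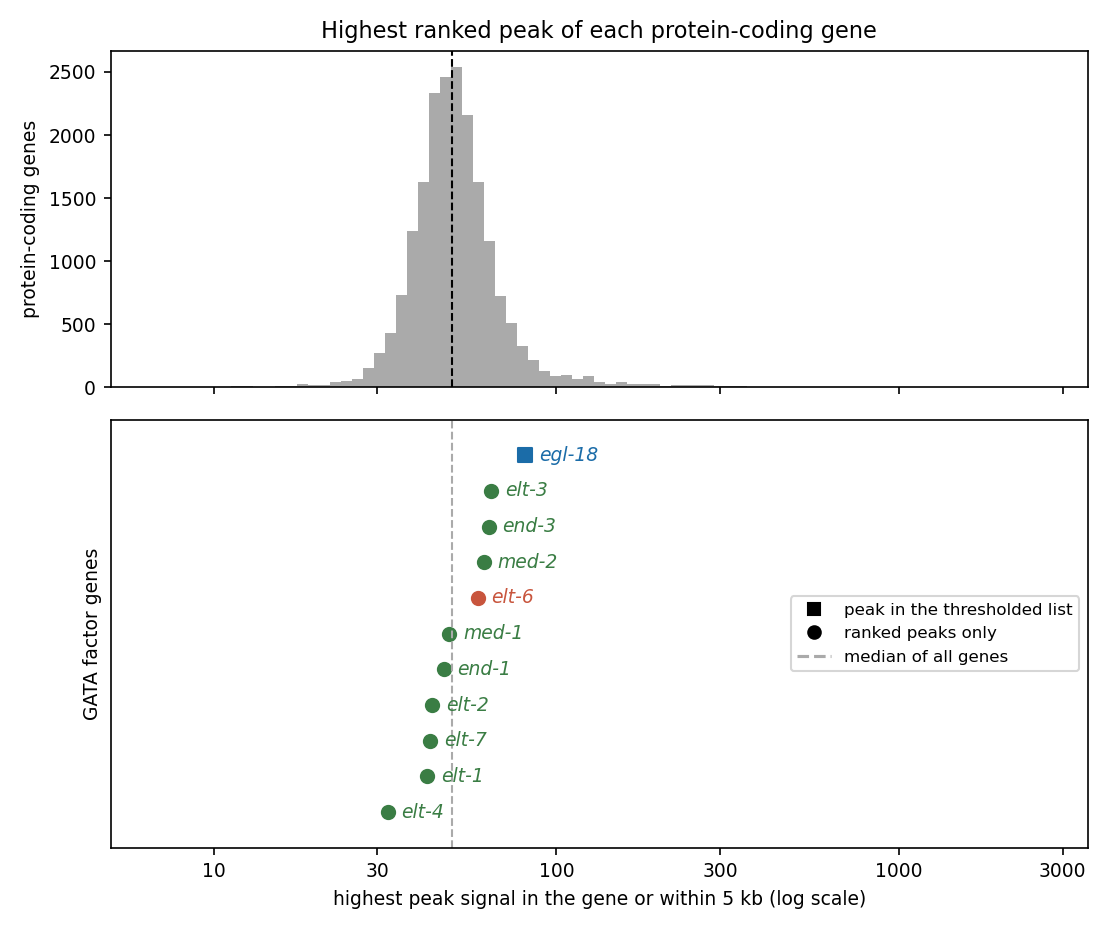
Highest signal of any ranked peak in the gene or within 5 kb, on a log scale (horizontal axis), for all protein-coding genes with a peak (upper panel, number of genes) and for the 11 GATA factor genes (lower panel, 1 row each, in order of signal). *egl-18* (81.1) stands above the other GATA factor genes and *elt-6* (59.0) follows *elt-3*, *end-3* and *med-2*, both above the median of all genes at 49.6 (dashed line).

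The first peak had no GATA site within 75 bp of its summit, and the share of peaks with one at the locus was near that of the whole list. In the first sequence printed above, the 1 site is AGATAA on the minus strand (TTATCT, from base 32), 104.5 bp from the summit. In replicates 1 and 2 the summits of this peak also had 0 sites within 75 bp. The 151 bp around the summit are 55.6% G and C, beside 40.2% over the locus and 34.6% over chromosome IV. The second peak held no site at all, and its nearest was 345.5 bp from the summit. The 2 peaks with the highest scores of the locus therefore had no site near their summits.

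Sites near summits were found at the third peak and at the highest peak of *elt-6*. The third sequence has TGATAA from base 95, 41.5 bp from the summit, AGATAG on the minus strand from base 198 (61.5 bp) and TGATAA from base 219 (82.5 bp). In replicate 1, the summit of this peak, at 1916661, falls on the first base of the last of these. In intron 5 of *elt-6* the peak has AGATAA from base 122, 14.5 bp from the summit. The same site lies 23.5 bp from the summit of replicate 1, and the summit of replicate 2 had 0 sites within 75 bp and its nearest at 157.5 bp. The peak of the first intron of *egl-18* at 1905633 has AGATAA 4.5 bp from its summit.

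Within 75 bp of the summit, 13 of the 48 peaks had a site, or 27.1% (exact Clopper-Pearson 95% interval 15.3% to 41.8%), beside 26.0% of all peaks of the list and 28.6% of windows of 151 bp tiled along chromosome IV. In the other series-level list, which shares most of these peaks, it was 12 of 48, or 25%. In replicate 1 it was 12 of 33, or 36.4% (20.4% to 54.9%), beside 24.9% of that list. In replicate 2 it was 4 of 26, or 15.4% (4.36% to 34.9%), beside 25% of its list. The replicates lay on opposite sides of their backgrounds, and each interval included its background. Neighbouring peaks can overlap and are not independent, so the intervals are descriptions and not tests. Among all thresholded peaks the share was 15.5%.

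The locus held 68 sites, of which 32 were TGATAA, 16 AGATAA, 12 TGATAG and 8 AGATAG. That is 2.32 per kb, beside 2.41 per kb over chromosome IV. The first intron of *egl-18* had 28 and its intron 4 had 12, while intron 5 of *elt-6* had 1. Of the 68 sites, 17 (25%) lay within 75 bp of a summit, and such stretches covered 24.7% of the locus. The higher 24 peaks by signal had a site in 9 cases and the lower 24 in 4. Over the whole list, 24.3% of the higher and 27.7% of the lower peaks had one. Of the 10 highest peaks of the locus by signal, 5 had a site, beside 21.2% of all peaks of the list in the same range of signal. These splits by signal were made in the main series-level list only. They were not made in the replicates, whose shares of peaks with a site lay on opposite sides of their backgrounds. The median distance from a summit of the locus to the nearest site was 197 bp.

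**Figure D4:**
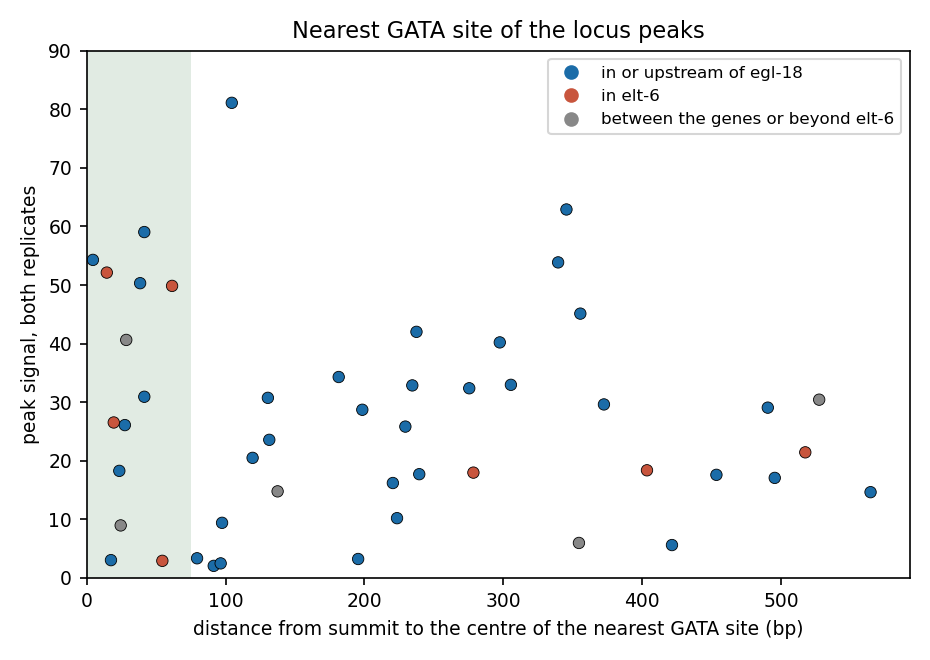
Distance from the summit to the nearest GATA site in bp (horizontal axis) and peak signal (vertical axis) for the peaks of the series-level ranked list at the locus, coloured by place, with the 75 bp limit marked. The highest peak, at 81.1, lies at 104.5 bp, and 13 of 48 peaks lie inside the limit.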

How the data were processed

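Peak lists of ChIP-seq on EGL-18 fused to GFP were analysed for 2 replicates of 1 group. The assembly was ce11, per the labels. The sources used here do not give aligner, caller or settings. Each list was derived with 1 control file, per the deposited descriptions, which was not analysed here. Each replicate had a ranked and a thresholded list, and the series had 2 of each. The 699 thresholded peaks are all in the series-level ranked list used as the main one, and the 597 conservative peaks are all in the other. The signal is the peak height as deposited by the authors, on a scale that is not stated, and was used within a list only. The score deposited by the authors follows -125 times the base-2 logarithm of the IDR, up to 1000. The −log10 values of the deposited lists hold the global IDR of a peak. No read counts were used, so the depth is unknown, and intervals on shares cover the number of peaks only.

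A peak belonged to the locus by its summit. Genes came from Ensembl release 115 and sequence from the RefSeq genome of WBcel235. Peaks of different lists were paired by an overlap of 1 bp or more. GATA sites were searched within 75 bp of the summit. With 1 group and 1 locus no test was made, and all values are descriptions; the replicates show only how far these 2 samples differ. Named genes were *egl-18*, *elt-6*, every annotated gene in the locus and the GATA, seam cell and Wnt lists. Named peaks were the thresholded peak, the 3 peaks with the highest scores of each ranked list and the highest of each place. The peaks at 1898669, 1898888, 1901649, 1902581, 1905633, 1912701 and 1918548, those over F55A8.3, and the one at 1915746 were named after their values were seen. The members and lists were chosen with earlier results of these data known. The counting steps were tested on simulated data. Software was Python 3.11.15 with scipy 1.17.1, pandas 2.3.3, numpy 2.4.6 and, for plots, matplotlib 3.10.9.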

Additional observations from a re-analysis of the deposited data

How the results depend on the processing

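Of 34 alternative values for the locus as a whole, 25 differed by less than the spread between replicates or, for counts, by at most 1.5 times, and 9 by more. Without one of the replicates, that is in the other replicate's own list, the locus held 0 thresholded peaks in each case and from 26 to 33 ranked peaks. The share with a GATA site then ran from 15.4% to 36.4%, and the share of genes above *egl-18* from 5.31% to 11.1%. Limited to an IDR of 0.05 or less, 2 ranked peaks were left. With 150 bp on either side of the summit, 45.8% of the peaks had a GATA site, beside 45.8% of the whole list. With the letters GATA alone the share was also 45.8%, beside 59.7% of the list, and with TGATAA alone 14.6%, beside 11.9%. With 2000 bp and 10000 bp around the genes, 2.99% and 9.03% of genes were above *egl-18*. In gene bodies alone, an alternative chosen after seeing the data, 0.596% of genes were above *egl-18*. When summits had to lie within 100 bp, 10 peaks were seen in both replicates in place of 19. For *elt-6*, the share of genes above it ran from 11.3% to 41.8%, except that 10000 bp took in the first peak, in *egl-18*, and gave 9.03%. No paired analysis was possible because there is 1 group. The lists give no depth, so a peak missing from a replicate cannot be told from one under its detection limit, and no control list was analysed.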
